A study of Homo sapiens with 8 samples.

Results

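The transcripts of 10 cell cycle entry genes were examined in 8 RNA-seq libraries: the transcription factor gene MYC, the D-type cyclin genes CCND1, CCND2 and CCND3, the E-type cyclin genes CCNE1 and CCNE2, the CDK inhibitor genes CDKN1A, CDKN1B and CDKN2A, and the transcription factor gene E2F1. They were chosen by name from 36950 genes with a transcript in the tables, because earlier work describes mRNAs of this group as bound by AUF1, and close relatives were added to complete each family. All 10 genes had a value above 0 in every library. The rule itself used no measured value.

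RNA was total RNA from HEK293, an established human embryonic kidney cell line. The line carries adenovirus early-region genes, some of whose products bind the RB proteins. Every library came from transfected HEK293 cells, and each group held 1 library. The cells had been given a control siRNA, an AUF1 siRNA, an empty vector, AUF1 with a Flag tag in 1 of its isoforms (p37, p40, p42 and p45 each had a library of its own), or all of these isoforms together (called all isoforms here). AUF1 siRNA was set against control siRNA, and each of the 5 overexpression libraries against the empty vector, which those comparisons therefore share. The sources used here do not give the clone, the passage or the time after transfection. With 1 library per group there was no estimate of the spread between cultures, so no comparison below has a replicate check or a p-value.

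AUF1 is the product of HNRNPD and binds AU-rich stretches of RNA, classically runs that hold the pentamer AUUUA, in the 3′ untranslated region (3′UTR) of short-lived mRNAs, and it can speed or slow their decay. Its p37, p40, p42 and p45 forms arise by alternative splicing of a single gene. In the pathway studied here, MYC and the D cyclins lie upstream: D cyclins activate CDK4 and CDK6, E cyclins activate CDK2, and both phosphorylate RB so that E2F1 is freed to transcribe genes of DNA replication, while the products of CDKN1A (p21), CDKN1B (p27) and CDKN2A (p16 and ARF) hold this sequence back.

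AU-rich pentamers were searched for first, on the sense strand of the longest annotated 3′UTR of each gene (GENCODE release 29, genome build GRCh38). ATTTA, the DNA spelling of the pentamer, was present in 9 of the 10 genes, against 67.6% of 19128 coding genes with a 3′UTR. CCNE2 held 11 copies in 1862 nt, CCND2 8 in 5341 nt, CCND1 7 in 3192 nt, CDKN1B 7 in 1344 nt and E2F1 6 in 1049 nt. MYC held 4 in 476 nt, which at 8.40 per kb was the densest of the 10, against a median of 1.48 per kb over all coding genes. CDKN1A held 3, CCND3 2 and CDKN2A 2, where the median over coding genes was 2, and CCNE1 held none in 531 nt. The longer motif TTATTTATT, which contains the pentamer, was found in 8.21% of coding genes and in E2F1 alone of the 10, with 2 copies. These matches describe letters in a window and not measured binding.

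Examples of these sites are given for CCND1, the CDK inhibitors and E2F1, so not every role is represented, and no E cyclin site is shown. The flanking bases are not A and T throughout, and those of E2F1 are largely G and C. Capitals mark ATTTA, and all are written 5′ to 3′ on the gene's own strand.
CCND1: taaaatatataATTTAtagttaaggct
CDKN1A: tttgtgttttaATTTAaacacctcctc
CDKN1B: aATTTAaagcttactctgtccATTTAt
CDKN2A: tcgtagttttcATTTAgaaaatagagc
E2F1: tggagcgttATTTATTTAtcgaggcct
On GRCh38 the CCND1 site is at chr11:69652670-69652696 (plus strand), the CDKN1A site at chr6:36685899-36685925 (plus), the CDKN1B site at chr12:12721935-12721961 (plus), the CDKN2A site at chr9:21968102-21968128 (minus) and the E2F1 site at chr20:33676154-33676180 (minus). All 5 lie in 3′UTR exons. The CDKN1B window holds 2 separate pentamers and the E2F1 window 2 overlapping ones.

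Levels are sums of FPKM (fragments per length of transcript and per total of mapped fragments) over the transcripts of a gene, divided by a scaling factor per library (0.934 to 1.066). The number of reads is unknown. Coverage per FPKM, a measure of relative depth, ran from 0.213 in the all isoforms library to 0.345 in p42. HNRNPD itself, on hg19 chr4:83273650-83295656, was at 296.5 in control siRNA and 167.3 in AUF1 siRNA (log2 ratio -0.82), and at 312.4 in the empty vector against 3006 to 4886 in the 5 overexpression libraries. Of the HEK293 markers examined, 6 of 6 matched genes were above 1 in every library, with a summed level of 191.5 to 234.1. Fibroblast markers summed to 2.68 to 7.86 and blood markers to 0.33 to 1.76. The 5 cervical carcinoma line markers summed to 35.2 to 69.9, with CAV1 at 31.5 to 48.8, KRT17 at 0 to 23.5, S100A2 at 0.64 to 5.56 and KRT14 below 1, and their part in the results was not tested. In bulk RNA, fewer cells with a transcript and less of it per cell cannot be told apart.

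A gene was compared where its mean in the 2 libraries was at least 5 FPKM and both values were above 0, and was counted as different at 2-fold or more on the scale log2(FPKM + 1). By median level over the 8 libraries, CDKN2A was highest (171.2 FPKM), followed by CDKN1B (79.0), CCND3 (52.4), CDKN1A (41.4), CCND2 (27.7), CCND1 (10.4), CCNE1 (7.47), E2F1 (5.95), CCNE2 (5.76) and MYC (4.18). The 3 CDK inhibitors and CCND3 were the 4 highest, and MYC was the lowest. The order depended on short transcripts. When each transcript was weighted by its length and the sum expressed per length of the longest transcript, CDKN2A stayed highest (103.7) and MYC lowest (2.90), while CDKN1A (32.4) and CCND2 (27.3) passed CDKN1B (19.9) and CCND3 (17.0). Over the 8 libraries, the ranges of neighbours in the order of sums overlapped except between CDKN2A and CDKN1B, between CDKN1A and CCND2, and between CCND2 and CCND1.

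**Figure D1:**
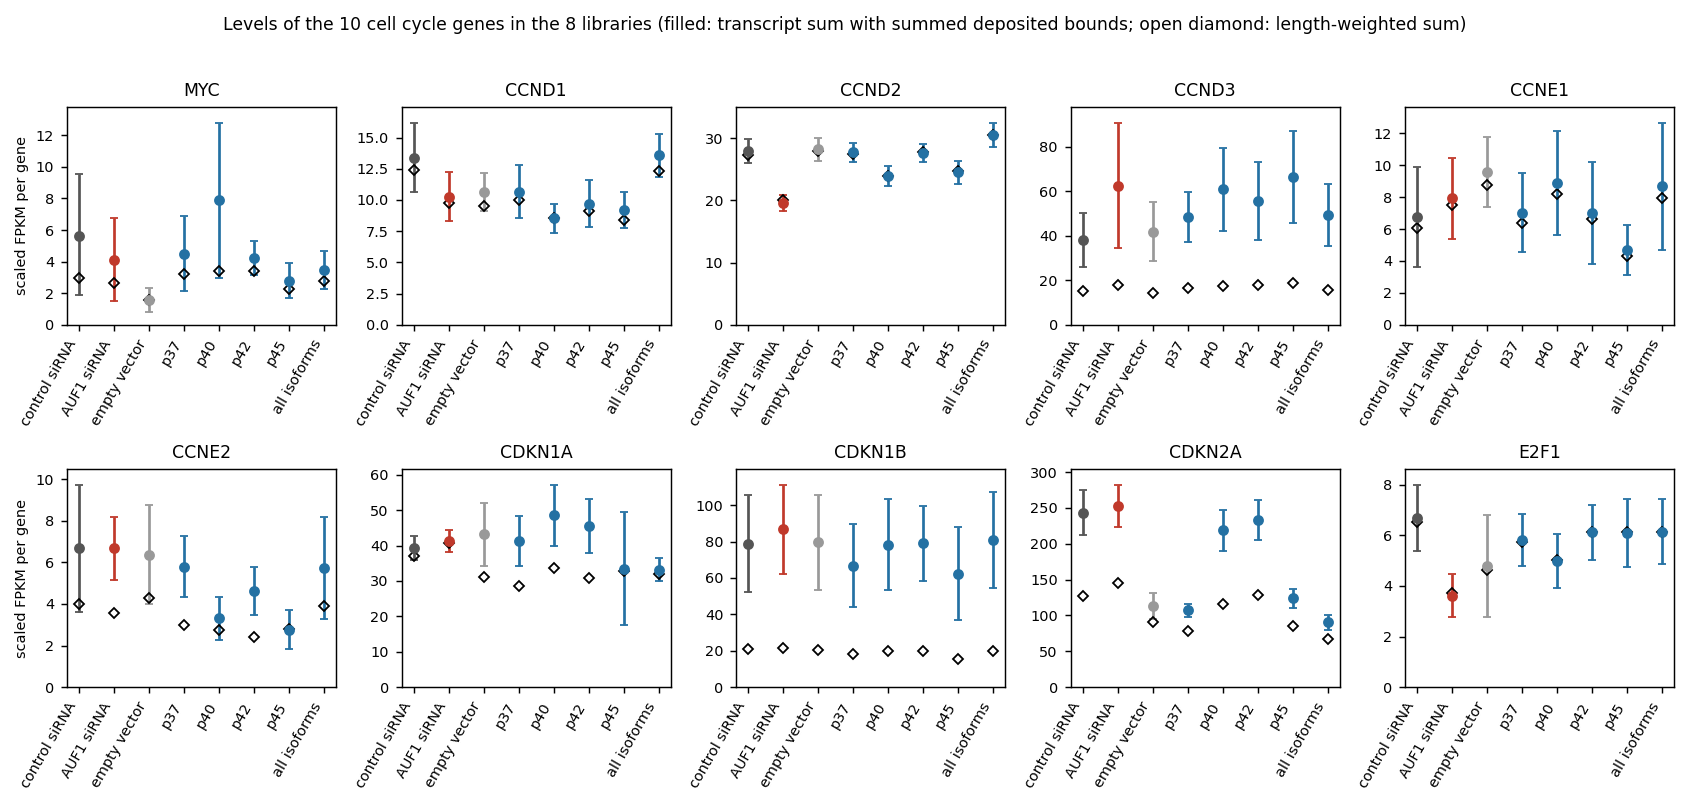
Level of each of the 10 genes in each library, in scaled FPKM on a linear axis from 0. Filled points are sums over transcripts, bars the summed lower and upper bounds deposited with the transcripts (uncertainty within a library only), and open diamonds the length-weighted sums. CCND2 is lowest in the AUF1 siRNA library at 19.6, and the CDKN2A sums fall into 4 libraries at 218.7 or more and 4 at 123.7 or less, a gap that is smaller for the diamonds.

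MYC, on hg19 chr8:128747679-128753674 (ENSG00000136997), drives growth and cell cycle entry. Its level was 5.64 FPKM in control siRNA, 4.13 in AUF1 siRNA, 1.57 in the empty vector, 4.51 in p37, 7.88 in p40, 4.22 in p42, 2.81 in p45 and 3.47 in all isoforms. The empty vector was the lowest of the 8 libraries, so each overexpression library lay above it, and control siRNA lay above it as well. MYC was below the level minimum in all 6 comparisons. Its log2 ratios to the empty vector, given as values only, were 1.10 in p37, 1.79 in p40, 1.02 in p42, 0.57 in p45 and 0.80 in all isoforms, beside 1.37 for control siRNA. Weighted by length they were 0.73, 0.79, 0.79, 0.36 and 0.57, beside 0.64 for control siRNA. Against control siRNA, AUF1 siRNA was at -0.37 (-0.12 weighted by length).

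The transcripts behind the MYC sums differed from library to library. A transcript of 1893 nt, ENST00000454617, which is not in GENCODE release 29, was above 0 in 7 libraries at 0.43 to 4.22 FPKM, with the deposited status LOWDATA in each. In the empty vector the whole sum lay in a transcript of 2353 nt assembled from the reads. In p40, 67.2% of the sum lay in a transcript of 577 nt, ENST00000520751, which was otherwise above 0 in control siRNA alone. The aligned bases that coverage and length imply for MYC were few, from 846 in the empty vector to 2744 in p42, and the summed bounds of 0.80 to 2.34 in the empty vector overlapped those of every library except p40 (2.97 to 12.8) and p42 (3.15 to 5.29).

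**Figure D2:**
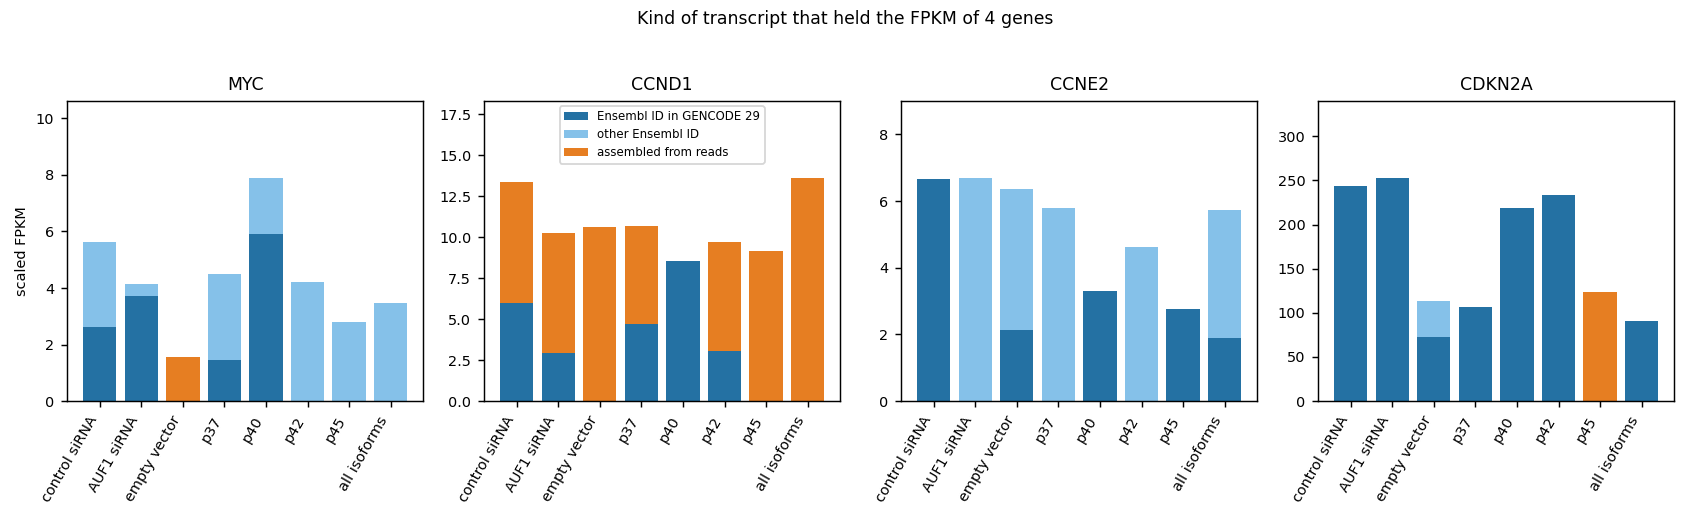
Stacked bars of scaled FPKM (linear axis from 0) for MYC, CCND1, CCNE2 and CDKN2A in each library, divided by the kind of transcript that held it: an Ensembl transcript in GENCODE release 29, another Ensembl transcript at the same locus, or a transcript assembled from the reads. With GENCODE transcripts alone, MYC would be listed at 0 in 4 libraries, CCND1 in 3, CCNE2 in 3 and CDKN2A in p45.

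The D cyclins couple growth signals to CDK4 and CDK6. CCND1, on hg19 chr11:69455854-69469242 (ENSG00000110092), was at 13.4 FPKM in control siRNA, 10.3 in AUF1 siRNA, 10.6 in the empty vector, 10.7 in p37, 8.53 in p40, 9.70 in p42, 9.19 in p45 and 13.6 in all isoforms. Control siRNA and all isoforms were the highest, and the other 6 libraries lay close together. The log2 ratio was -0.35 in AUF1 siRNA against control siRNA, but -0.04 against the empty vector. Against the empty vector, p40 was at -0.28 and all isoforms at 0.33. In 7 libraries, 55.4% to 100.0% of the CCND1 sum lay in a transcript of 3905 to 3907 nt assembled from the reads, and the annotated ENST00000227507 of 4307 nt held all of it in p40. The sources used here do not state the strand, and reads of overlapping neighbours on either strand cannot be separated from those of CCND1 or of the other genes.

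CCND2, on hg19 chr12:4382937-4414516 (ENSG00000118971), was the most evenly measured of the cyclins, since a single transcript of 6480 nt, ENST00000261254, held its whole sum in all 8 libraries. It was at 27.9 FPKM in control siRNA, 19.6 in AUF1 siRNA, 28.2 in the empty vector, 27.7 in p37, 23.8 in p40, 27.7 in p42, 24.5 in p45 and 30.5 in all isoforms. AUF1 siRNA was the lowest library, and its bounds of 18.3 to 20.9 lay below those of the 7 others, the nearest being p40 at 22.2 to 25.5. Against control siRNA alone, bounds were apart for 21.5% of all genes. How many genes were apart from all 7 others was not counted. The log2 ratio to control siRNA was -0.49 and to the empty vector -0.51. The bounds of p40, and those of p45 (22.7 to 26.3), also lay below the bounds of the empty vector (26.4 to 30.1), with log2 ratios of -0.23 and -0.20. These bounds cover estimation within a library only, and none of these differences reached 2-fold.

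CCND3, on hg19 chr6:41902670-42018095 (ENSG00000112576), was at 38.2 FPKM in control siRNA, 62.5 in AUF1 siRNA, 41.9 in the empty vector, 48.4 in p37, 60.8 in p40, 55.5 in p42, 66.2 in p45 and 49.2 in all isoforms. By these sums both control libraries were the lowest, but the direction depended on which transcripts were counted. The log2 ratio was 0.70 in AUF1 siRNA and ran from 0.20 in p37 to 0.65 in p45. The summed bounds overlapped in each of the 6 comparisons. Transcripts shorter than 1000 nt held 64.8% to 87.8% of the sum, led by ENST00000514382 of 476 nt, at 24.7 to 41.98 FPKM. Weighted by length, the range over the libraries was 14.3 to 18.8, with log2 ratios of 0.23 in AUF1 siRNA and 0.37 in p45. With protein-coding transcripts alone, which leaves the 476-nt transcript out, the ratios were -0.63 in AUF1 siRNA, 0.18 in p37, -0.41 in p40, -0.10 in p42, 1.18 in p45 and -0.09 in all isoforms. The p45 value rested on another short transcript, ENST00000508143 of 574 nt, at 15.8 FPKM there and above 0 in no other library. The longer coding transcripts were at 8.49 in p45 (ENST00000415497), and at 6.99 (ENST00000415497) and 3.24 (ENST00000372991) in the empty vector. Without LOWDATA transcripts the p42 ratio was -0.11.

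The E cyclins act with CDK2 at the entry to S phase. CCNE1, on hg19 chr19:30302900-30315216 (ENSG00000105173), was at 6.77 FPKM in control siRNA, 7.92 in AUF1 siRNA, 9.56 in the empty vector, 7.02 in p37, 8.88 in p40, 7.01 in p42, 4.67 in p45 and 8.66 in all isoforms. The p45 library was the lowest and the empty vector the highest. Their log2 ratio was -0.90 (-0.88 weighted by length), the bounds of p45 (3.11 to 6.22) lying below those of the empty vector (7.39 to 11.7), and the ratio of p45 to control siRNA was -0.45. The whole sum of the empty vector lay in ENST00000357943 (1807 nt) and that of p45 in ENST00000444983 (1777 nt), while the other 6 libraries held both. ENST00000444983 had the status LOWDATA in all 7 libraries where it was above 0, so the whole p45 level carried that status. CCNE1 ratios depended on such transcripts: the p37 ratio was -0.40 by sums and -1.99 with LOWDATA transcripts left out.

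CCNE2, on hg19 chr8:95891997-95908906 (ENSG00000175305), was at 6.68 FPKM in control siRNA and AUF1 siRNA alike, 6.37 in the empty vector, 5.80 in p37, 3.31 in p40, 4.62 in p42, 2.76 in p45 and 5.72 in all isoforms. The p40 and p45 libraries were the lowest, and their means with the empty vector fell below the level minimum. Their log2 ratios of -0.77 and -0.97 are given as values, and weighted by length they were -0.51 and -0.48. By that measure the lowest library was p42, at 2.42 FPKM with a ratio of -0.63. The bounds of p45, 1.84 to 3.69, lay below those of the empty vector at 3.98 to 8.76. CCNE2 was read from different transcripts: ENST00000542725 (1734 nt, not in GENCODE release 29) was above 0 in 5 libraries, and ENST00000308108 (2726 nt) held the whole sum in p40.

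CDKN1A, on hg19 chr6:36644304-36655116 (ENSG00000124762), encodes p21, the CDK inhibitor induced by p53. It was at 39.4 FPKM in control siRNA, 41.4 in AUF1 siRNA, 43.2 in the empty vector, 41.4 in p37, 48.5 in p40, 45.6 in p42, 33.5 in p45 and 33.2 in all isoforms. The p45 and all isoforms libraries were the lowest, with log2 ratios of -0.36 and -0.37. A transcript of 766 nt, ENST00000373711, was above 0 only in the empty vector, p37, p40 and p42, where it held 38.1% to 46.1% of the sum. The full-length ENST00000244741 of 2180 nt was above 0 in all 8 libraries at 23.3 to 41.4 FPKM. Weighted by length, the p45 and all isoforms ratios were 0.08 and 0.04, on the other side of 0 from the sums, and the 2 siRNA libraries were the highest, at 37.04 for control siRNA and 40.8 for AUF1 siRNA.

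CDKN1B, on hg19 chr12:12867991-12875305 (ENSG00000111276), encodes p27, which restrains cyclin E with CDK2. Its level was 78.9 FPKM in control siRNA, 86.7 in AUF1 siRNA, 79.5 in the empty vector, 66.8 in p37, 78.3 in p40, 79.1 in p42, 62.3 in p45 and 80.8 in all isoforms. The p45 and p37 libraries were the lowest, at log2 ratios of -0.35 and -0.25, and the highest library was 1.39 times the lowest, the narrowest range of the 10 genes by sums. Weighted by length, CCND3 was narrower, at 1.31 against 1.40. Transcripts of 453 nt (ENST00000477087) and 577 nt (ENST00000442489) were above 0 in all 8 libraries at 27.6 to 44.6 and 19.5 to 40.4 FPKM. Transcripts shorter than 1000 nt held 77.9% to 96.3% of the sum, so the range by sums describes mostly short transcripts. The full-length ENST00000228872 of 2657 nt was at 2.08 to 4.38 in 7 libraries and was not above 0 in control siRNA.

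CDKN2A, on hg19 chr9:21967751-21995300 (ENSG00000147889), encodes p16, an inhibitor of CDK4 and CDK6, and ARF, which stabilises p53, from separate first exons. It was at 243.2 FPKM in control siRNA, 252.2 in AUF1 siRNA, 113.3 in the empty vector, 107.0 in p37, 218.7 in p40, 233.5 in p42, 123.7 in p45 and 90.3 in all isoforms. Control siRNA, AUF1 siRNA, p40 and p42 were high, the other 4 libraries were low, and the bounds of the 2 sets did not overlap (190.4 to 247.1 in p40, the lowest of the high ones, against 110.3 to 137.1 in p45, the highest of the low ones). The log2 ratio to the empty vector was 1.04 in p42, past 2-fold, and 0.94 in p40, just short of it. The 2 control libraries differed by as much, at 1.10 for control siRNA against the empty vector, and against control siRNA the p42 ratio was -0.059. AUF1 siRNA was at 0.05 against control siRNA.

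A single short transcript divided the high from the low CDKN2A libraries. ENST00000380150, of 493 nt and placed at hg19 chr9:21970440-21971331, was at 133.0 to 150.3 FPKM in the 4 high libraries and at 0 in the 4 low ones. Without it the sums were 92.9 in control siRNA, 117.9 in AUF1 siRNA, 113.3 in the empty vector, 107.0 in p37, 79.6 in p40, 100.5 in p42, 123.7 in p45 and 90.3 in all isoforms, so that p40 became the lowest and p42 lay below the empty vector. Weighted by length, the p42 ratio was 0.49 and the p40 ratio 0.34, and control siRNA stood at 0.47. Most of the remainder was ENST00000530628 (905 nt), which ends at 21994490 near the start of the ARF form on this minus-strand gene and was at 72.8 to 117.9 FPKM in 7 libraries with the status LOWDATA. In p45 the whole sum lay in an assembled transcript of 826 nt. Transcripts that begin near the p16 first exon, ENST00000304494 (end 21975097), ENST00000446177 (end 21975038), ENST00000498124 (end 21974865) and ENST00000380151 (end 21974826), were listed at 0 in all 8 libraries, so the deposited CDKN2A signal was assigned to ARF-type transcripts and to fragments within the gene.

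**Figure D3:**
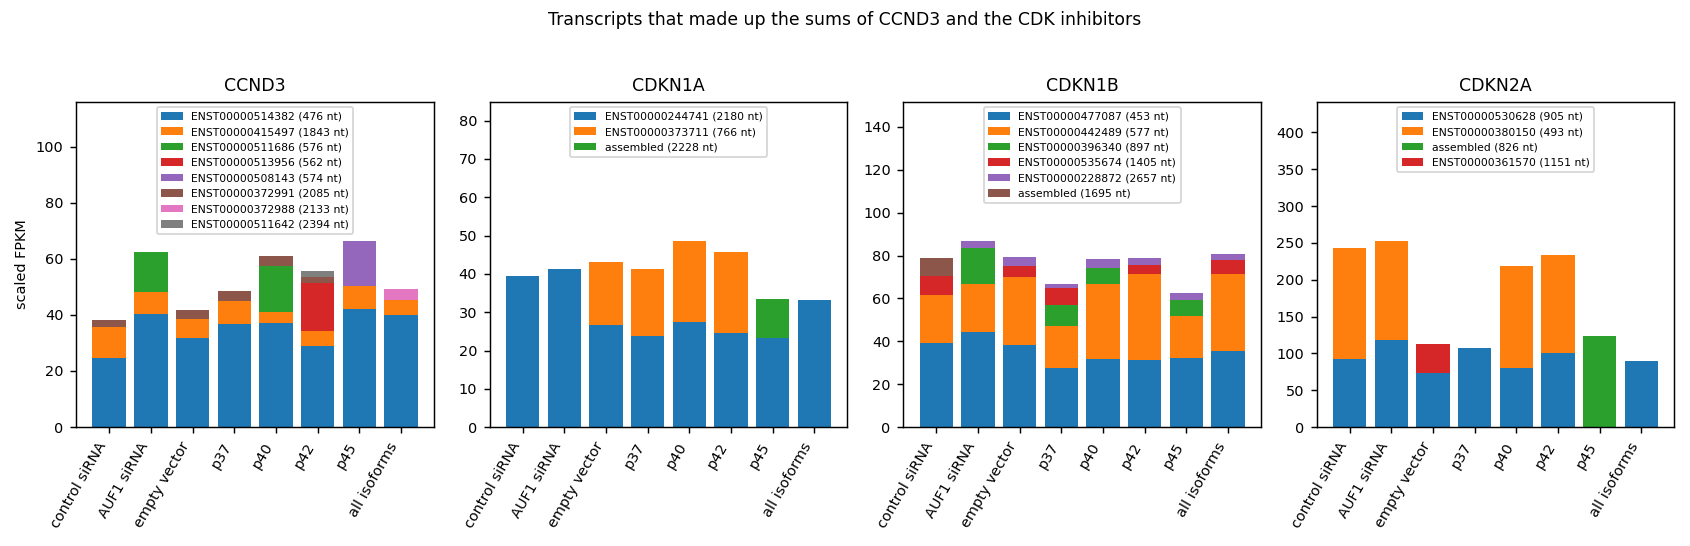
Stacked bars of scaled FPKM (linear axis from 0) by transcript for CCND3, CDKN1A, CDKN1B and CDKN2A in each library, with transcript lengths in the legends. The 493-nt CDKN2A transcript at 133.0 to 150.3 FPKM appears in control siRNA, AUF1 siRNA, p40 and p42, and the 766-nt CDKN1A transcript in the empty vector, p37, p40 and p42.

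E2F1, on hg19 chr20:32263488-32274210 (ENSG00000101412), switches on replication genes once RB is phosphorylated. It was at 6.69 FPKM in control siRNA, 3.62 in AUF1 siRNA, 4.79 in the empty vector, 5.82 in p37, 4.99 in p40, 6.12 in p42, 6.09 in p45 and 6.15 in all isoforms. AUF1 siRNA was the lowest of the 8 libraries. Its log2 ratio to control siRNA was -0.73 (-0.68 weighted by length), with bounds of 2.78 to 4.46 against 5.38 to 7.99, and this was the lowest ratio of the 9 members compared. The bounds of AUF1 siRNA overlapped those of the empty vector and of p40. Ratios of the overexpression libraries to the empty vector ran from 0.05 in p40, below the level minimum, to 0.30. ENST00000343380 (2503 nt) was the annotated transcript in all 8 libraries, and in the empty vector 54.7% of the sum lay in an assembled transcript of 2412 nt.

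Set against all genes, the 10 genes did not stand apart by their counts past 2-fold. In AUF1 siRNA against control siRNA, 0 of 9 members compared were past 2-fold, where 13.3% of 10483 genes were (10.1% higher and 3.26% lower), and the median log2 ratio of the members was 0.05 against -0.04 for all genes. Bounds were apart for 2 of the 9, CCND2 and E2F1, and for 21.5% of all genes, a similar share. The members past 2-fold were 0 of 9 in p37 (5.71% of all genes), 0 of 7 in p40 (6.87%), 1 of 9 in p42 (5.63%), 0 of 8 in p45 (8.16%) and 0 of 9 in all isoforms (6.34%). The 1 member in p42 was CDKN2A, which was higher, as were 2.95% of all genes there. Bounds were apart for 0 of 9 members in p37 (8.69% of all genes), 2 of 7 in p40 (10.3%), 1 of 9 in p42 (10.1%), 2 of 8 in p45 (10.9%) and 0 of 9 in all isoforms (7.86%). The 2 in p40 were CCND2 and CDKN2A, and the 2 in p45 were CCND2 and CCNE1. These 2 shares were larger than those of all genes but rest on few genes. Between the 2 control libraries, 1 of 9 members, CDKN2A, was past 2-fold, with 7.79% of 10019 genes, a larger share than in any overexpression library except p45.

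Members' median log2 ratios in the overexpression libraries were -0.06 in p37, -0.02 in p40, -0.01 in p42, -0.19 in p45 and 0.02 in all isoforms, where medians over all genes lay between -0.02 and -0.01. The p45 median was the farthest from 0, with CCNE1 the lowest and CCND3 the highest member there. Over the 8 libraries, the highest level was at least 2 times the lowest in 3 of the 9 members with a mean of 5 FPKM or more (CCNE1 2.05, CCNE2 2.42, CDKN2A 2.79) and in 38.4% of 10072 genes. Weighted by length, it was so for 2 of 8 members and 16.2% of 7773 genes.

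**Figure D4:**
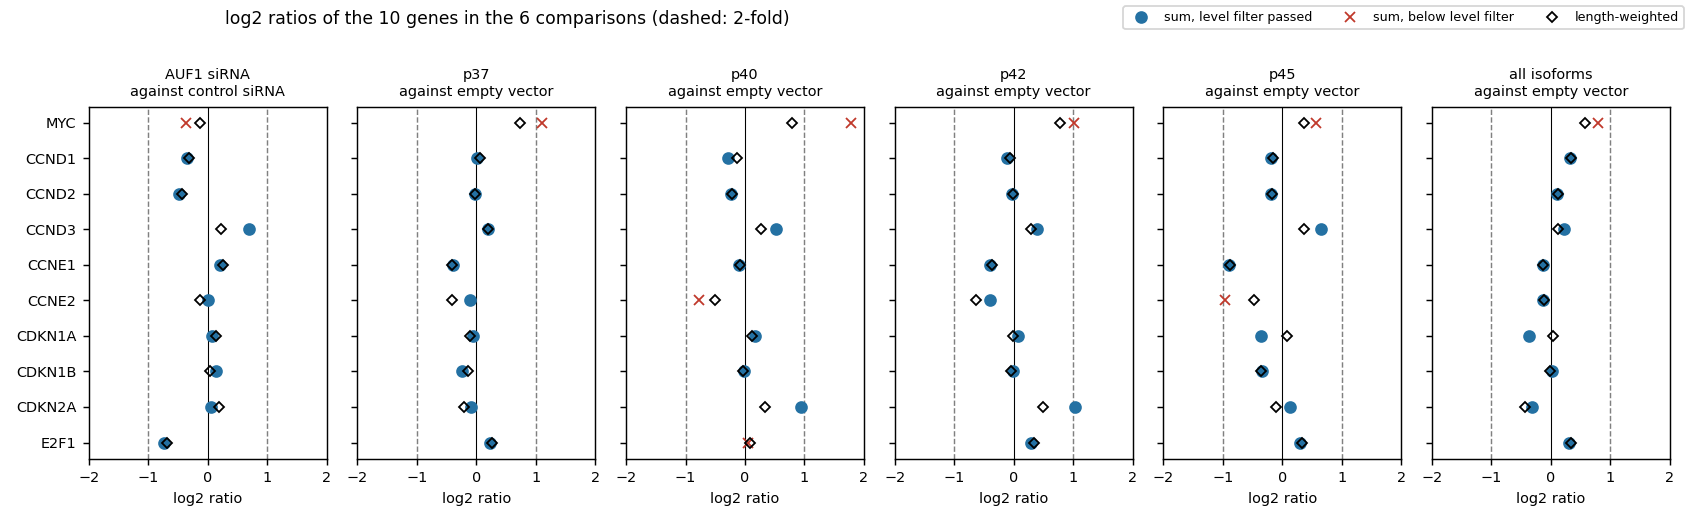
log2 ratios of the 10 genes in the 6 comparisons, with dashed lines at 2-fold. Filled points are transcript sums that passed the level minimum, crosses those that did not, and open diamonds length-weighted sums. CDKN2A in p42, at 1.04, is the only filled point past a dashed line, and its diamond is at 0.49.

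The wider pathway was read from 8 lists of 83 further genes, all of which were matched. In AUF1 siRNA against control siRNA, 2 of 70 genes compared were past 2-fold higher and 5 lower, where the shares of all genes were 10.1% and 3.26%. Their median was -0.34 against -0.04 for all genes, and 78.6% of them lay below 0 against 53.3% of all genes. The median was -0.21 weighted by length, beside -0.05 for all genes by that measure, and -0.19 against the empty vector. When set against control siRNA, the overexpression libraries also had list medians below 0, from -0.14 in all isoforms to -0.18 in p45. The AUF1 siRNA median of -0.34 was the lowest of those against control siRNA. For the overexpression libraries against control siRNA, no median over all genes is given here, and the cause of the lower levels was not tested. In AUF1 siRNA against control siRNA, all 8 lists had a median below 0. It was -0.51 for the textbook MYC targets (11 of 12 genes below 0), -0.41 for the RB family and other E2F factors (7 of 10), -0.37 for other cyclins (6 of 7) and -0.29 for the textbook E2F targets (12 of 14). It was -0.27 for degradation and p53 control (5 of 7), -0.24 for MYC relatives and partners (5 of 7), -0.16 for cyclin-dependent kinases and their activators (8 of 12) and -0.64 for the 1 other CDK inhibitor compared. The MYC targets also had 11 of 12 genes below 0 in p42, with a median of -0.16. In p37 3 genes were past 2-fold higher and 1 lower of 70, beside 2.88% and 2.83% of all genes. In p40 they were 3 and 3 of 69 (4.03% and 2.84% of all genes), in p42 3 and 3 of 70 (2.95% and 2.68%), in p45 2 and 3 of 69 (5.09% and 3.06%) and in all isoforms 4 and 1 of 68 (3.32% and 3.02%). These counts were near the shares of all genes, and the medians ran from -0.11 in p42 to -0.04 in p37.

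Genes of these lists past 2-fold in AUF1 siRNA against control siRNA included CCNG2, a cyclin relative linked to growth arrest, at 9.28 FPKM in control siRNA and 41.0 in AUF1 siRNA (log2 ratio 2.03, 0.75 weighted by length). Control siRNA was the lowest library, since the empty vector was at 27.4, to which the AUF1 siRNA ratio was 0.56. RRM2, the small subunit of ribonucleotide reductase, was at 852.2 in control siRNA and 59.9 in AUF1 siRNA (-3.81, -1.005 weighted by length), but at 83.8 in the empty vector (-0.48), and 82.6% of the control siRNA sum lay in an assembled transcript of 316 nt. NCL, nucleolin, was at 1013 and 505.6 (-1.002, -0.98 weighted by length, -0.38 against the empty vector). CAD (-2.21), TFDP1 (-1.10) and USP28 (-1.09) were lower and POLA1 (1.46) higher, with length-weighted ratios of -0.08, -0.41, -0.10 and -0.07. Against the empty vector they were -2.75 for CAD, -0.25 for TFDP1, -0.36 for USP28 and -0.22 for POLA1, whose direction turned.

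WEE1, the kinase that restrains CDK1, was past 2-fold higher in all 5 overexpression libraries, at log2 ratios of 2.38 in p37, 3.80 in p40, 2.89 in p42, 2.99 in p45 and 3.36 in all isoforms. These libraries share the empty vector, which was at 2.96 FPKM while control siRNA was at 39.3. TFDP2, an E2F partner, was likewise higher in all 5, at 1.995 to 2.96, from 9.60 in the empty vector and 48.3 in control siRNA. For both genes the transcript that led the control siRNA sum was short, ENST00000524612 of 573 nt for WEE1 and ENST00000488107 of 416 nt for TFDP2. Weighted by length, the WEE1 ratios were 0.54 to 1.49 and the TFDP2 ratios -0.21 to 0.37. Against control siRNA neither gene was past 2-fold in any of the 5 libraries, at -0.97 to 0.45 for WEE1 and -0.22 to 0.74 for TFDP2.

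Other list genes were past 2-fold in fewer libraries. CDK7, a CDK-activating kinase, was at 12.2 FPKM in p40 against 27.4 in the empty vector (-1.10, -1.03 weighted by length, -1.24 against control siRNA). The RB1 sum lay wholly in a 480-nt transcript (ENST00000467505), at 1653 FPKM in p37 to 9806 in all isoforms. Its ratios were -1.41 in p37, -1.16 in p40 and 1.16 in all isoforms, and -1.40, -1.13 and 1.17 weighted by length. Against control siRNA they were -0.71, -0.46 and 1.85. No part of the sum lay in a full-length RB1 transcript, so these values describe that short transcript alone. Among the rest, E2F5 was higher in p37 (1.30), RBL1 lower in p42 (-1.09) and p45 (-1.27), CCNC lower in p45 (-1.22), CAD lower in p45 (-2.94), MXD1 lower in all isoforms (-1.46), MCM5 lower in p40 (-1.21) and p42 (-1.09), MCM2 higher in p42 (1.47), and RRM2 higher in p40 (1.71) and all isoforms (3.19). Weighted by length none of these was past 2-fold: E2F5 was at 0.85, RBL1 at -0.23 and -0.36, CCNC at -0.70, CAD at -0.68, MXD1 at -0.46, MCM5 at -0.18 and -0.02, MCM2 at 0.26, and RRM2 at 0.0063 and 0.44. Against control siRNA, RRM2 was lower in p40 (-1.62) and at -0.14 in all isoforms, and E2F5, CAD, MXD1 and MCM2 stayed past 2-fold in the same direction.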

How the data were processed

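Each of the 8 tables lists, per the file headers, an FPKM value, its lower and upper bound, a status and a coverage (estimated read depth) per transcript, as deposited by the authors. They were made on hg19 with TopHat2 2.0.6, Cufflinks 2.0.2 and Cuffdiff, per the submitters' processing notes, and the sources used here do not name the annotation release. Of 160485 Ensembl transcripts, 136915 matched GENCODE release 29. Transcripts of 300 nt or more were summed per gene, with 14858 other Ensembl transcripts placed by gene ID or cluster, and with read-assembled transcripts whose cluster held 1 GENCODE gene (61.7% of assembled rows). Sums of bounds are wider than a joint interval. Scaling factors were medians of ratios over 13197 genes, and ratios used a pseudocount of 1 FPKM. FPKM keep no read number, so depth is known only as coverage per FPKM. The members and lists were chosen with earlier results of these data known. All 10 members are named whatever their values; of the other lists, genes past 2-fold are named, at most the 2 highest and the 2 lowest per list and comparison, apart from 1 gene that is not reported here; for MYC, CCND1 and CDKN1A the 3 genes most alike by Pearson correlation are named. Alternatives changed scaling, pseudocount, level minimum, length filter, length weighting, status, biotype and control library. Python 3.11.15, pandas 2.3.3 and numpy 2.4.6 were used, and the steps were tested on simulated data.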

Additional observations from a re-analysis of the deposited data

How the results depend on the processing

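Each group holds 1 library, so no replicate could be left out, and the deposited bounds hold no biological spread. Of 591 recomputed member ratios, 531 kept both their direction and their side of 2-fold. This count includes ratios under a changed level minimum, which could not move. That setting decides which genes are compared and does not enter the ratio. Another 12 came past 2-fold and 3 fell short of it. In all, 45 lay on the other side of 0, among them 16 with the other control library, 8 with protein-coding transcripts alone, 5 weighted by length and 5 with LOWDATA transcripts left out; 1 of the 45 was past 2-fold in the sums. The CDKN2A ratio in p42 was -0.059 with control siRNA as the control, 0.94 with FPKM as deposited, 0.49 weighted by length and 0.47 with protein-coding transcripts alone. CCNE1 in p45 came past 2-fold with FPKM as deposited (-1.004) and with a pseudocount of 0.1 (-1.02).

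Members past 2-fold in p42 were 0 with FPKM as deposited, weighted by length, with protein-coding transcripts or with the other control library, and 2 with no level minimum. In p45 they were 1 with FPKM as deposited, a pseudocount of 0.1, protein-coding transcripts, or LOWDATA transcripts left out. In p37 they were 1 with no level minimum, LOWDATA transcripts left out, or the other control. In p40 they were 1 with no level minimum and 2 with LOWDATA transcripts left out. In all isoforms they were 1 with LOWDATA transcripts left out or the other control, and in AUF1 siRNA 1 with the other control. Counting GENCODE or Ensembl transcripts alone was chosen after seeing the data, as was setting the called list genes against the other control; p40 then had 1 member past 2-fold with GENCODE transcripts.

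Counts over all genes, in the order AUF1 siRNA, p37, p40, p42, p45 and all isoforms, were 1396, 579, 701, 570, 841 and 642. With a pseudocount of 5 they were 838, 312, 391, 319, 444 and 327. With a level minimum of 20 they were 402, 202, 254, 205, 272 and 223, and with none 3235, 1280, 1543, 1280, 1838 and 1394, since fewer or more genes are compared. Weighted by length they were 440, 111, 158, 113, 188 and 111. With protein-coding transcripts they were 743 in AUF1 siRNA, 459 in p40 and 530 in p45. The cause of the other differences was not tested. The share of p45 calls that were higher was 62.4%, and 52.0% with FPKM as deposited. No paired analysis was possible because each group holds 1 library.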

Other observations

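The genes whose levels varied most like those of MYC, CCND1 and CDKN1A over the 8 libraries were looked up among 10570 genes that averaged at least 5 FPKM. Pearson correlations of log2(FPKM + 1) are given as descriptions, because the 8 values share scaling and depth and the highest of all these genes is chosen each time. For MYC they were 0.95 with ATP5MC1, a subunit of mitochondrial ATP synthase, 0.92 with MRPL16, a mitochondrial ribosomal protein gene, and 0.91 with DGKZ, a diacylglycerol kinase gene. For CCND1 they were 0.95 with the long noncoding RNA AC073530.1, 0.94 with PPM1N and 0.94 with TNRC6C, an Argonaute partner gene. For CDKN1A they were 0.94 with the pseudogene GTF2IP12, 0.94 with WWP1, a ubiquitin ligase gene, and 0.93 with TM2D1.

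Zeros under an annotated identifier were common beyond the 10 genes. Of the same 10570 genes, 2208 (20.9%) would be listed at 0 in at least 1 library if transcripts of GENCODE release 29 alone were counted.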
